A study of Mus musculus with 15 samples.

Results

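The genes of fertilization and egg calcium handling were followed in mouse oocytes, and were chosen by their roles, with earlier results of these data known. They are Cd9, Izumo1r, Astl, Itpr1, Cacna1h, Trpm7, Trpv3, Orai1, Stim1 and Atp2a2, 10 of the 55401 genes in the count tables, and 10 of 10 were among the 21009 genes that passed the filter on low counts. The oocytes came from Kunming mice, were at the germinal vesicle stage and were pooled, 6 per library, in 15 libraries of 5 groups. IVV oocytes had grown in vivo and were taken by puncture of antral follicles. IVG and IVG-NT oocytes came from preantral follicles of mice aged 12 to 14 days, dissected by hand and grown singly in medium with FSH, in IVG-NT with added neurotrophin-4 (NT-4) and in IVG without it. They were collected on day 10 or day 6 of culture, so that the 5 groups of 3 libraries are IVV, IVG day 10, IVG-NT day 10, IVG day 6 and IVG-NT day 6. No allele or transgene is carried by any group, the age of the in vivo donors is not given separately, and each library averages its pool of oocytes. The samples of a group came from replicated experiments, but which libraries share an experiment is not stated. The IVV libraries are numbered 2, 3 and 4, the others 1, 2 and 3, and values are given in that order throughout.

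At fertilization a sperm binds and fuses with the egg membrane, and the sperm phospholipase C zeta then raises inositol trisphosphate, which opens the inositol trisphosphate receptor and releases calcium from the endoplasmic reticulum in repeated waves. Each wave is cleared by calcium pumps, the store is refilled by calcium entering through channels of the plasma membrane, and the waves drive exocytosis of cortical granules and the exit from meiosis. Fusion needs JUNO, the product of Izumo1r, which is the egg receptor for sperm IZUMO1, and the tetraspanin CD9. Astl encodes ovastacin, the cortical granule protease that cleaves ZP2 and closes the zona pellucida to further sperm. Itpr1 encodes the main inositol trisphosphate receptor of the egg, and Atp2a2 the SERCA2 pump that loads the store. Cacna1h (the T-type channel CaV3.2), Trpm7 and Trpv3 encode channels through which divalent ions enter the oocyte or egg. Stim1 encodes the sensor of store filling, and Orai1 the plasma membrane channel that it opens. A fully grown oocyte stores the messages of these genes before they are needed.

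The libraries differed in depth and in kind. Total counts were 19033272 to 55593251 in 13 libraries but 5954262 and 7125348 in IVG-NT day 6 replicates 1 and 2. These 2 shallow libraries held a count in 13338 and 10991 genes, against 15483 to 22966 genes in the others, and the Spearman correlations of the IVG-NT day 6 libraries with each other were 0.51 to 0.54, against 0.77 to 0.96 in the other groups. Results that rest on them are therefore given with and without them. In 9 libraries, called rRNA-rich here, the annotated rRNA gene CT010467.1 took over 5% of all counts (replicates 1 and 2 of the 4 cultured groups, with replicate 3 of IVV), and the other 6 are called rRNA-poor. What distinguished the preparation of both kinds is not given in the labels. The cells were oocytes by their markers: 12 of 12 oocyte markers were detected in each group, at summed levels of 12824 to 23177 CPM, the count scaled to the normalised library total. The 14 granulosa cell markers summed to 49.2 to 400 CPM, from 190 to 277 CPM in IVV, 102 to 400 CPM in IVG day 10, 138 to 316 CPM in IVG-NT day 10, 54.6 to 162 CPM in IVG day 6 and 49.2 to 275 CPM in IVG-NT day 6, and 0, 2, 1, 0 and 3 of the 14 were at 0 in all libraries of these groups. The 10 theca and stroma markers summed to 0.288 to 40.0 CPM, the 8 macrophage markers to 0 to 82.4 CPM with the highest sum in IVG-NT day 6, and the 5 sperm markers to 0 to 68.8 CPM. In pooled RNA a smaller share of a cell type and less RNA per cell cannot be told apart, and the part of these markers in the results below was not tested.

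The genes lie on 7 chromosomes of the mm10 (GRCm38) genome, and each is annotated as protein coding. The genes of sperm binding and fusion are Cd9 (chr6:125460266-125494791, minus strand) and Izumo1r (chr9:14885814-14903949, minus strand), and the cortical granule gene is Astl (chr2:127338639-127357651, plus strand). The genes of the store are Itpr1 (chr6:108213096-108551109, plus strand) and Atp2a2 (chr5:122453513-122502225, minus strand). The channel genes are Cacna1h (chr17:25374285-25433783, minus strand), Trpm7 (chr2:126791565-126876230, minus strand) and Trpv3 (chr11:73267388-73300363, plus strand). The genes of store-operated entry are Orai1 (chr5:123015074-123030456, plus strand) and Stim1 (chr7:102267806-102437319, plus strand). Exons of genes on the opposite strand cover 218 bp of Cd9 (Gm26728), 289 bp of Itpr1 (Gm44040 and Gm44101), 158 bp of Cacna1h (Tpsg1), 83 bp of Atp2a2 (Gm43361) and 7 bp of Orai1 (Gm2479). SMART-Seq2 does not mark strand, so reads from these stretches could belong to either gene.

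Upstream sequence was read from the RefSeq table of GRCm38.p6, which holds an entry for 7 of the 10 genes. Printed here are the stretches before the annotated starts of Astl and Trpv3, whose levels separated groups, and of Trpm7, whose level varied with that of Trpv3 across libraries. Stim1 and Atp2a2 also separated groups, but Atp2a2 has no entry and the entry of Stim1 is not printed. The choice of Trpm7 rests on values pooled over rRNA-rich and rRNA-poor libraries, and carries no test. Capitals mark each match to the E-box CANNTG, the element bound by basic helix-loop-helix factors such as FIGLA of the oocyte, searched on both strands.
Astl, chr2:127338389-127338638, plus strand: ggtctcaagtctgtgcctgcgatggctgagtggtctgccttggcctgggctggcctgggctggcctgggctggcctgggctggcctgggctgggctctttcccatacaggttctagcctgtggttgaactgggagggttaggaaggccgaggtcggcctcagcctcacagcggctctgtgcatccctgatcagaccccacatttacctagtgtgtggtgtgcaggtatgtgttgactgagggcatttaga
Trpv3, chr11:73267270-73267387, plus strand: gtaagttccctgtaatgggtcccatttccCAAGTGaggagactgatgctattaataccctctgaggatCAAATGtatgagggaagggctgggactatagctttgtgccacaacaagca
Trpm7, chr2:126876262-126876511, minus strand: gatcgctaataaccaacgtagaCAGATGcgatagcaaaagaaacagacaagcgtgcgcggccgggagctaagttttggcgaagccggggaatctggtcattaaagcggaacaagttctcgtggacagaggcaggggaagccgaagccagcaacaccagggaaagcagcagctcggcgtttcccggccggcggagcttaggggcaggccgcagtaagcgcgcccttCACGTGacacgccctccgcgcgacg
The E-box had 0 matches in the 250 bp of Astl, 2 in the 118 bp of Trpv3 and 2 in the 250 bp of Trpm7. Among all 32851 RefSeq promoter windows, 66.2% held a match in the same 250 bp and 41.3% in the same 118 bp, so a match of this short motif is common. TAATTG, an element bound by the oocyte homeobox factor NOBOX, had 0 matches in the windows of the 7 genes with an entry, and 7.17% of all windows of 250 bp held it. A match is a description of the letters and no evidence of binding.

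Per length of all exons, Astl was the most abundant of the 10 genes by its mean and Stim1 the least in each of the 5 groups. By their means in IVV, the genes of sperm binding, Izumo1r and Cd9, came next after Astl. Levels are given as FPKM, here normalised CPM divided by the length of all exons of the gene in kb. In IVV oocytes they were 117 ± 7.99 for Astl, 95.3 ± 42.7 for Izumo1r, 61.5 ± 37.8 for Cd9, 43.7 ± 15.001 for Atp2a2 and 24.4 ± 10.3 for Orai1 (SD, n = 3). The other genes followed at 4.85 ± 1.92 for Cacna1h, 3.61 ± 1.64 for Itpr1, 2.50 ± 2.02 for Trpm7, 0.641 ± 0.528 for Trpv3 and 0.194 ± 0.142 for Stim1 (SD, n = 3). Of neighbours in this order, Orai1 and Cacna1h were the pair whose ranges did not overlap. The order differed between single libraries. In the rRNA-rich IVV library Atp2a2, at 60.5 FPKM, stood above Izumo1r at 46.0 FPKM and Cd9 at 22.8 FPKM. In IVV replicate 4, an rRNA-poor library, Izumo1r at 122 FPKM stood above Astl at 109 FPKM. In IVG day 10 oocytes Astl again headed the order, at 145 ± 15.01 FPKM, with its range apart from that of Izumo1r at 71.5 ± 29.9 FPKM, and Stim1 closed it at 0.225 ± 0.0208 FPKM (SD, n = 3). In both day 10 groups the mean of Atp2a2 was above that of Cd9, at 48.0 against 43.8 FPKM in IVG and 60.5 against 44.1 FPKM in IVG-NT, with overlapping ranges. In IVV and both day 10 groups, Atp2a2 was above Cd9 in each rRNA-rich library and below it in each rRNA-poor library. The rRNA-poor values were 31.7 against 98.4 and 38.9 against 63.5 FPKM in IVV. They were 28.8 against 65.7 FPKM in IVG day 10 and 22.4 against 88.1 FPKM in IVG-NT day 10. IVV held more rRNA-poor libraries than these groups did. Trpv3 stood at the ninth place in IVV, at the eighth in both day 10 groups, and at the sixth in IVG day 6 with 9.15 ± 6.82 FPKM (SD, n = 3). The order depends on the length used. With the longest transcript in place of all exons, the mean of Izumo1r was above that of Astl in IVV, at 171 against 126 FPKM. The same held in IVG-NT day 10, at 128 against 99.1 FPKM, and in IVG-NT day 6, at 81.7 against 66.2 FPKM. Astl stayed above Izumo1r in IVG day 10, at 156 against 129 FPKM, and in IVG day 6, at 186 against 124 FPKM. Cd9 then came to 102 FPKM in IVV and to 74.3 FPKM in IVG-NT day 6.

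The members' levels differed with the kind of library. Over the 13 libraries other than the shallow ones, Cd9, Izumo1r and Orai1 were lower in rRNA-rich than in rRNA-poor libraries in 4 of 4 groups, with differences of mean log2 CPM of −1.55, −1.05 and −1.90. Itpr1 (1.78), Cacna1h (1.49), Trpm7 (2.07), Trpv3 (3.15) and Atp2a2 (1.38) were higher in rRNA-rich libraries in 4 of 4 groups, and Astl (−0.02) and Stim1 (0.17) had the smallest differences. The sign followed the length of the transcript. The longest annotated transcripts of the lower genes measured 1228 bp for Cd9, 1291 bp for Izumo1r and 1875 bp for Orai1, and those of the higher genes ran from 5674 bp for Atp2a2 to 9870 bp for Itpr1. Across the 10 genes length and difference had a Spearman rho of 0.85, a description over genes that share the same 13 libraries. The same slope ran through the tested genes with a mean of at least 10 CPM, whose median difference was −2.57 for 466 genes with transcripts of up to 1000 bp, −1.08 for 1061 genes up to 2000 bp, 0.14 for 2585 genes up to 4000 bp, 1.02 for 2307 genes up to 8000 bp and 1.60 for 517 longer genes. Trpv3 stood further out than most tested genes, at percentile 98.1 of this difference. Each in vitro group held replicates 1 and 2 as rRNA-rich and replicate 3 as rRNA-poor, whereas IVV held 1 rRNA-rich and 2 rRNA-poor libraries, so comparisons with IVV are not balanced for kind and are given within kinds too.

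**Figure D1:**
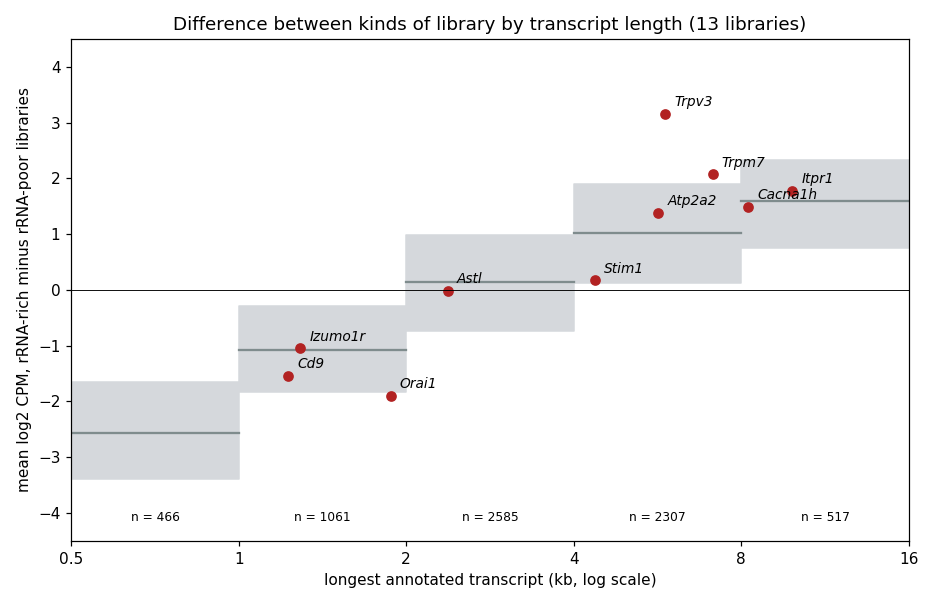
Difference of mean log2 CPM between rRNA-rich and rRNA-poor libraries (vertical axis, 7 against 6 libraries) against the longest annotated transcript in kb (horizontal log axis); red points are the 10 genes, and grey bars are the median and quartiles of tested genes in 5 length classes, with their number, the outer classes being drawn from 0.5 kb and to 16 kb. Cd9, Izumo1r and Orai1 lie below 0, from −1.05 to −1.90, and the long genes above it, with Trpv3 highest at 3.15.

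The values of pairs of genes followed this split. Over the 13 libraries the log2 CPM of Cacna1h and Atp2a2 had a Pearson r of 0.95, Itpr1 and Cacna1h of 0.94, Cd9 and Izumo1r of 0.86, and Trpm7 and Trpv3 of 0.82, and Itpr1 and Orai1 had −0.94. These values describe libraries of both kinds pooled, and carry no test.

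Cd9, the tetraspanin of sperm fusion, was read at 201, 46.6 and 129.7 normalised CPM in IVV, at 64.2, 69.9 and 134 in IVG day 10 and at 45.0, 45.4 and 179.98 in IVG-NT day 10. In the day 6 groups it was read at 90.7, 101 and 289 CPM in IVG and at 32.0, 29.6 and 212 CPM in IVG-NT. In each group the rRNA-poor libraries held the highest value, and no 2 groups were apart. Izumo1r, the sperm receptor JUNO, had 274, 107 and 282 CPM in IVV, 124, 127 and 246 CPM in IVG day 10, and 115, 104 and 277 CPM in IVG-NT day 10. It had 117, 157 and 205 CPM in IVG day 6, and 85.5, 7.31 and 223 CPM in IVG-NT day 6. Its lowest value was that of a shallow library, from 42 reads, and the groups overlapped here too.

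Astl, the protease of the zona block, was the most even of the genes within IVV, at 319, 299 and 278 CPM. It was read at 382, 401 and 327 CPM in IVG day 10 and at 291, 213 and 203 CPM in IVG-NT day 10. These values put all IVG libraries above all IVV and all IVG-NT libraries of day 10. On day 6 it was read at 489, 306 and 533 CPM in IVG and at 16.3, 6.44 and 449 CPM in IVG-NT, so the shallow libraries were far below the third of their group.

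Of the genes of the store, Itpr1 was read at 48.6, 101 and 48.9 CPM in IVV, 211, 165 and 48.1 CPM in IVG day 10, and 134, 207 and 29.7 CPM in IVG-NT day 10. On day 6 it was read at 120.03, 105 and 61.3 CPM in IVG and at 134, 0.696 and 24.9 CPM in IVG-NT. The groups overlapped, and the rRNA-poor libraries of IVV and of the day 10 groups lay at 29.7 to 48.9 CPM. Atp2a2, the SERCA2 pump, had 193, 368 and 237 CPM in IVV, 345, 355 and 175 CPM in IVG day 10, and 551, 417 and 136 CPM in IVG-NT day 10. It had 282, 311 and 175 CPM in IVG day 6 but 101, 77.8 and 41.6 CPM in IVG-NT day 6. The IVG-NT day 6 libraries, the deep one included, were the lowest of the 15 for this gene.

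Of the channels, Cacna1h was read at 36.1, 69.1 and 37.0 CPM in IVV, 83.1, 86.7 and 39.7 CPM in IVG day 10, and 97.3, 85.5 and 24.3 CPM in IVG-NT day 10. On day 6 it was read at 88.7, 64.5 and 36.9 CPM in IVG and 13.01, 40.5 and 12.3 CPM in IVG-NT, where 2 of 3 libraries were below the other 13. Trpm7 had 13.9, 54.6 and 16.2 CPM in IVV, 53.8, 39.4 and 15.4 CPM in IVG day 10, and 31.9, 36.7 and 6.78 CPM in IVG-NT day 10. It had 123, 136 and 15.7 CPM in IVG day 6, and 75.7, 0 and 18.9 CPM in IVG-NT day 6, so the highest values were those of the rRNA-rich IVG day 6 libraries. Trpv3 was read at 2.35, 7.28 and 1.61 CPM in IVV, 41.7, 42.1 and 7.55 CPM in IVG day 10, and 14.99, 40.1 and 4.40 CPM in IVG-NT day 10. On day 6 it was read at 78.7, 74.0 and 7.53 CPM in IVG and at 356, 0 and 2.66 CPM in IVG-NT. Within each kind of library, the IVV values of Trpv3 were below those of the IVG and IVG-NT day 10 and IVG day 6 libraries, and its IVG-NT day 6 mean was made by 1 shallow library.

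Of the genes of store-operated entry, Orai1 was read at 77.1, 30.5 and 60.2 CPM in IVV, 12.5, 9.71 and 49.5 CPM in IVG day 10, and 23.0, 11.6 and 64.2 CPM in IVG-NT day 10. On day 6 it was read at 31.3, 19.9 and 55.8 CPM in IVG and at 1.81, 0 and 112 CPM in IVG-NT. The groups overlapped, although within the rRNA-rich libraries IVV was above both day 10 groups. Stim1 was low throughout, at 3.62, 0.728 and 1.69 CPM in IVV, 2.13, 2.56 and 2.31 CPM in IVG day 10, and 2.53, 2.54 and 2.29 CPM in IVG-NT day 10. It had 3.17, 9.16 and 2.60 CPM in IVG day 6 and 0, 0 and 1.71 CPM in IVG-NT day 6, which put the IVG day 6 libraries above those of both day 10 groups and of IVG-NT day 6. The 0 reads in the shallow libraries allow up to 3 reads by counting error alone.

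**Figure D2:**
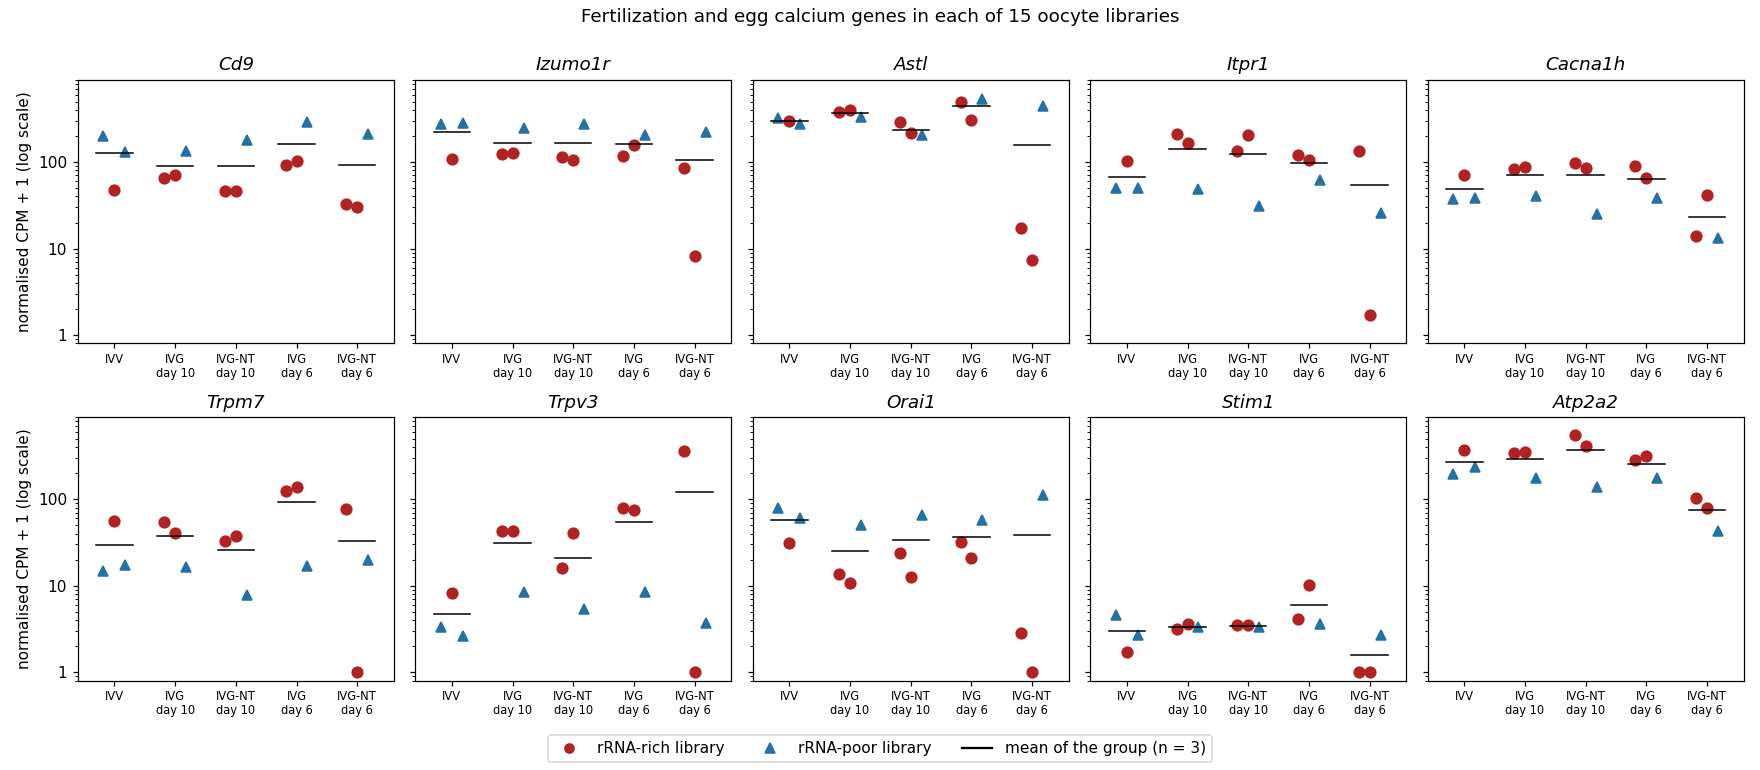
Normalised CPM plus 1 (vertical log axis) of each of the 10 genes in the 15 libraries, by group (horizontal axis); red circles are rRNA-rich and blue triangles rRNA-poor libraries, and the black line is the mean of 3 libraries. The mean of Trpv3 is lowest in IVV, at 3.74 CPM, and Atp2a2 in IVG-NT day 6 sits at 41.6 to 101 CPM, below the other groups.

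The first comparison asked how oocytes grown in culture to day 10 differed from those grown in vivo. Trpv3 was higher in IVG day 10, at 30.5 ± 19.8 against 3.74 ± 3.08 CPM (SD, n = 3), and its groups did not overlap. The fitted log2 fold change was 3.03 ± 1.76 (SE), which did not pass edgeR's quasi-likelihood test (adjusted P = 1). Astl, at 370.1 ± 38.4 against 299 ± 20.5 CPM (SD, n = 3), did not overlap either, with a log2 fold change of 0.31 ± 0.99 (SE), adjusted P = 1 by the same edgeR test. With DESeq2 size factors in place of TMM the log2 difference of Astl was 0.09 and its groups overlapped, whereas those of Trpv3 remained apart. Of the tested genes, 2.76% were called, which by the study's rule asks for a log2 fold change above 1 or below −1 and P under 0.05 before adjustment, and 0 of the 10 genes were. Groups that did not overlap were found for 11.9% of tested genes and for 2 of the 10 members. The log2 fold changes of the 10 genes ran from −1.23 for Orai1 to 3.03 for Trpv3, and 7 of 10 were above 0. Their median was 0.26, beside −0.20 over all tested genes, in a comparison not balanced for kind. Among rRNA-rich libraries alone Trpm7, Orai1 and Atp2a2 were below 0 and the other members above it. Among rRNA-poor libraries alone Astl (0.14), Cacna1h (0.12), Trpm7 (0.04) and Trpv3 (1.93) were above 0 and the other members below it.

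Within kinds of library Trpv3 kept its direction, 2.52 higher on the log2 scale in IVG day 10 among rRNA-rich and 1.93 among rRNA-poor libraries. Orai1 was 1.46 and 0.46 on the log2 scale below IVV in these kinds. Itpr1, whose pooled log2 fold change was 1.10 ± 1.12 (SE), differed by 0.89 among rRNA-rich and −0.02 among rRNA-poor libraries. The call on Trpv3 turned on the fit, since without the shallow libraries, which belong to another group but enter the shared fit, the log2 fold change was 3.01 ± 1.01 (SE) and was called (edgeR, adjusted P = 0.639). Adding library kind to the edgeR model gave 1.87, which was not called (adjusted P = 1). Two-sided exact permutation tests gave 0.1 for Astl and Trpv3, the smallest p that 3 libraries against 3 allow.

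IVG-NT day 10 oocytes were compared with the same IVV libraries. Here 0 of the 10 genes were called, beside 3.29% of tested genes, and 0 of 10 had groups apart, beside 11.6%. Trpv3 again had the largest log2 fold change, 2.41 ± 1.72 (SE), at 19.8 ± 18.3 against 3.74 ± 3.08 CPM (SD, n = 3), with adjusted P = 1 by edgeR's quasi-likelihood test. It was 1.74 higher among rRNA-rich and 1.16 among rRNA-poor libraries on the log2 scale, and without the shallow libraries it was 2.37 ± 0.99 (SE) and called (edgeR, adjusted P = 0.628). The log2 fold changes of the other 9 genes were from −0.77 for Orai1 to 0.90 for Itpr1. The median of the 10 was 0.06, beside −0.19 over all tested genes. Among rRNA-rich and rRNA-poor libraries in turn, Itpr1 differed by 0.73 and −0.72, Cacna1h by 0.40 and −0.59, and Atp2a2 by 0.38 and −0.65. Stim1 (1.73 and −0.11), Cd9 (−0.04 and 0.16) and Izumo1r (0.03 and −0.01) also changed direction between kinds. Orai1 (−0.90 and −0.09), Astl (−0.26 and −0.55) and Trpm7 (−0.67 and −1.14) were lower in both.

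The effect of NT-4 on day 10 was the comparison of IVG-NT with IVG. Astl was lower with NT-4, at 236 ± 48.0 against 370.1 ± 38.4 CPM (SD, n = 3), in 3 of 3 libraries against 3 of 3. Its log2 fold change was −0.65 ± 0.99 (SE) with adjusted P = 1 by edgeR's quasi-likelihood test, and the exact permutation test gave 0.1, its smallest value. The difference was −0.65 among rRNA-rich and −0.69 among rRNA-poor libraries, and the groups stayed apart with DESeq2 size factors. None of the 10 genes was called, beside 1.24% of tested genes (261 genes, or 127 when replicate numbers enter the fit as a block), and 1 of 10 had groups apart, beside 3.59%. The other 9 log2 fold changes lay between −0.62 for Trpv3 and 0.46 for Orai1. Their standard errors, from the fit over all 15 libraries, were 0.63 to 1.64. In that fit, which also carries the spread of the other groups, differences of about 2-fold in most of these genes were not detectable.

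On day 6, Atp2a2 was lower with NT-4, at 73.5 ± 30.0 against 256 ± 71.8 CPM (SD, n = 3), with the groups apart. The log2 fold change was −1.80 ± 0.65 (SE), with an adjusted P of 0.381 by edgeR's quasi-likelihood test. It was the 1 member called, beside 11.6% of tested genes, so the count of members is near the background. Leaving out the shallow pair leaves 1 rRNA-poor library in IVG-NT day 6 while the other cultured groups keep 2 rRNA-rich libraries each, so each contrast with it is then unbalanced for kind, and the difference among rRNA-poor libraries is given beside it. The shallow libraries were not needed for the direction: against the 1 deep IVG-NT library alone, assumed to vary like the other groups, the log2 fold change was −2.53 ± 0.94 (SE) and was called (edgeR, adjusted P = 0.928). The differences within kinds were −1.74 for rRNA-rich and −2.07 for rRNA-poor libraries. The edgeR exact test and the fit of these 2 groups alone did not call it.

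Stim1 was the other gene whose day 6 groups did not overlap, at 0.571 ± 0.988 against 4.98 ± 3.64 CPM (SD, n = 3), with 0 reads in both shallow libraries. Its log2 fold change was −3.01 ± 1.63 (SE), adjusted P = 0.471 in edgeR, and −1.43 without these libraries, and neither was called. Groups were apart for 8.45% of tested genes and for 2 of the 10 members. Cacna1h had a log2 fold change of −1.53 ± 0.79 (SE), adjusted P = 0.453, which was not called, and of −2.27 ± 0.95 (SE), adjusted P = 0.928, which was called, without the shallow libraries (edgeR). Cacna1h was 1.49 higher in rRNA-rich libraries on this scale, and the deep IVG-NT library differed from the rRNA-poor IVG library by −1.58. Trpv3 changed direction with them, from 1.16 ± 1.65 (SE) to −4.22 ± 1.74 (SE), and was called without them. It was 3.15 higher in rRNA-rich libraries, and between the rRNA-poor libraries alone its difference was −1.48. The median log2 fold change of the 10 genes was −1.17, beside −0.27 over all tested genes, and 8 of 10 were below 0. Scaling by DESeq2 size factors moved the median of all tested genes by 0.27 on the log2 scale in this comparison, and raised the share of called genes that were higher with NT-4 from 58.3% to 73.3%.

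Culture time was compared within each medium. From day 6 to day 10 without NT-4, 0 of the 10 genes were called, beside 2.9% of tested genes (609, and 360 with the replicate block). Stim1 was lower on day 10, at 2.33 ± 0.216 against 4.98 ± 3.64 CPM (SD, n = 3), with the groups apart, as for 7.42% of tested genes and 1 of the 10 members. Its log2 fold change was −1.09 ± 1.53 (SE), adjusted P = 1 in edgeR, and was −0.32 without IVG day 6 replicate 2, the library with 9.16 CPM. It was −1.19 among rRNA-rich and −0.17 among rRNA-poor libraries. The nearest values of the groups were 2.56 CPM on day 10 and 2.60 CPM on day 6. Trpm7 had the largest difference, −1.34 ± 1.36 (SE) on the log2 scale, which was −1.49 among rRNA-rich and −0.02 among rRNA-poor libraries.

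With NT-4, Atp2a2 was higher on day 10, at 368 ± 212 against 73.5 ± 30.0 CPM (SD, n = 3), and its groups did not overlap. The log2 fold change was 2.32 ± 0.67 (SE), with adjusted P = 0.357 by edgeR's quasi-likelihood test, and it was 3.03 ± 0.97 (SE), adjusted P = 1, without the shallow libraries. It was 2.43 among rRNA-rich and 1.71 among rRNA-poor libraries. Atp2a2 was the 1 member called, beside 12.7% of tested genes. Groups were apart for 11% of tested genes and for 2 of the 10 members, the other being Stim1 with a log2 fold change of 1.99 ± 1.57 (SE), which was 0.42 without the shallow libraries. Scaling by DESeq2 size factors moved the median of all tested genes by −0.36 and lowered the share of called genes that were higher on day 10 from 43.1% to 26.3%, and with it the log2 fold change of Atp2a2 was 1.73, still called.

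The difference between the NT-4 effects of day 10 and day 6 was tested as an interaction. For Atp2a2 it was 2.14 ± 0.91 (SE) on the log2 scale, from 0.34 on day 10 and −1.80 on day 6, with adjusted P = 0.721 (edgeR quasi-likelihood), and it was 2.84 ± 1.07 (SE) without the shallow libraries. Computed within kinds it was 2.19 among rRNA-rich libraries, which hold the shallow pair, and 1.71 among rRNA-poor libraries, which hold 1 library a group. The call was lost with DESeq2 size factors (1.59) and without any 1 of 6 libraries, with values of 1.69 to 2.07. Atp2a2 was the 1 member called, beside 6.37% of tested genes. After Benjamini-Hochberg adjustment 0% of tested genes passed in any of the 7 contrasts by edgeR's quasi-likelihood test, with 261 to 2661 genes under 0.05 before adjustment. DESeq2 gave 51 to 715 genes with an adjusted P under 0.05, and 0 of the 10 members were among them in any contrast. In edgeR alternatives where the shallow pair alone stood for IVG-NT day 6, Astl, Atp2a2, Stim1 and Orai1 did pass adjustment in contrasts with that group.

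**Figure D3:**
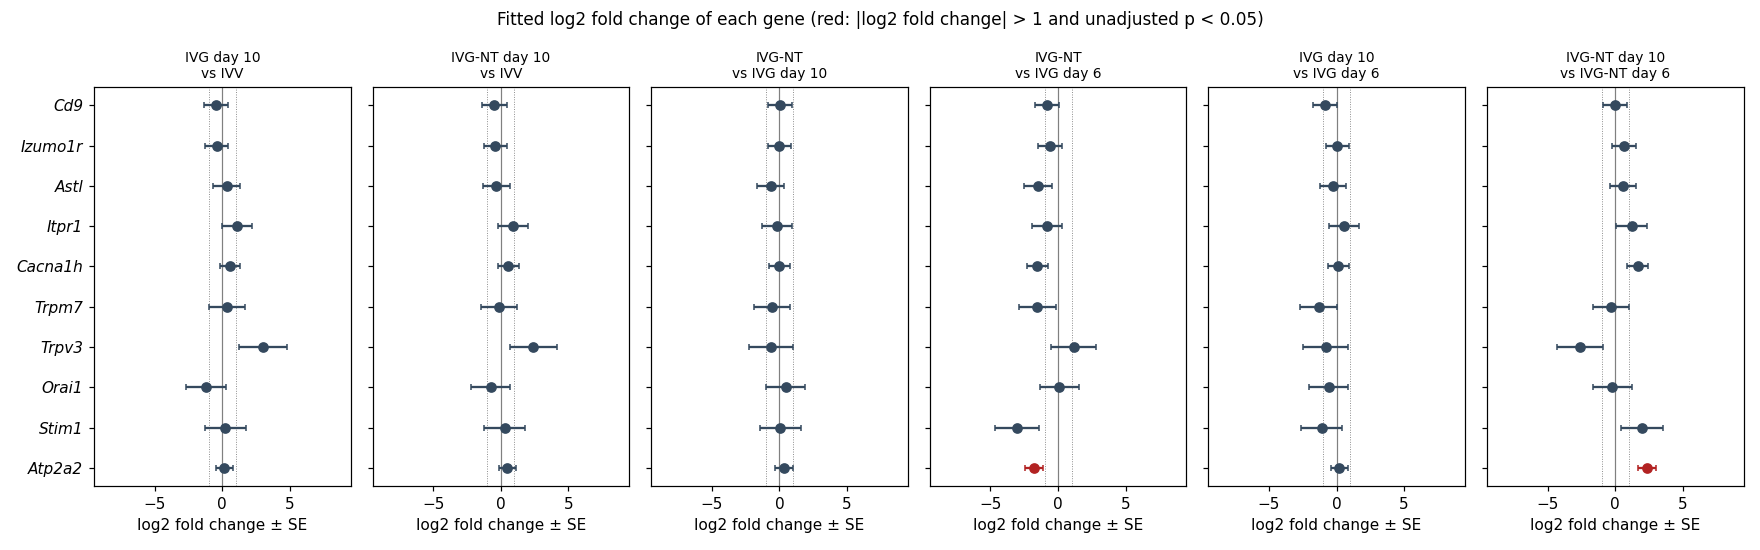
Fitted log2 fold change with its standard error (horizontal axes) of the 10 genes (rows) in the 6 comparisons of 2 groups (panels, the first group minus the second); dotted lines mark 1 and −1, and red points passed the study's rule for a call. Atp2a2 is red in both comparisons with IVG-NT day 6, at −1.80 and 2.32, and Trpv3 lies furthest right against IVV, at 3.03 and 2.41.

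The other genes of fertilization and calcium handling, 100 genes in 10 lists of which 92 passed the filter, were read in the same fits. In IVG day 10 against IVV, 1 was called higher and 2 lower, 3.26% of those tested beside 2.76% of all tested genes. Atp2b4, a plasma membrane pump that exports calcium, was higher in 3 of 3 IVG day 10 libraries at 30.1, 16.7 and 13.2 CPM than in IVV at 0.963, 2.61 and 0.691 CPM. Its log2 fold change was 3.82 ± 1.22 (SE), with adjusted P = 1 in edgeR, and it had an adjusted P of 0.0213 in DESeq2 and of 0.0257 in edgeR's exact test. It was 3.08 higher on the log2 scale among rRNA-rich and 3.93 among rRNA-poor libraries. In IVG-NT day 10, Atp2b4 stood at 24.9, 21.7 and 4.93 CPM, a log2 fold change of 3.60 ± 1.20 (SE), adjusted P = 1 (edgeR), where the adjusted P was 0.0533 in DESeq2 and 0.177 in edgeR's exact test. Within kinds it was 3.13 higher among rRNA-rich and 2.52 among rRNA-poor libraries. The calls were lost in the fit of rRNA-rich libraries only, at 3.18 and 3.19, and with the replicate block, at 3.02 and 2.70. In the fit over all libraries it was called against IVV in both cultures, which share the IVV libraries.

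The genes called lower than IVV were channel genes with few reads. Cacna1a, a neuronal calcium channel subunit, had 61, 66 and 36 reads in IVV and 0, 0 and 8 in IVG day 10. Cacna1s, the calcium channel of skeletal muscle, had 0, 81 and 0 reads in IVV and 0 in each IVG day 10 library, at least 74.5-fold lower by a floor of 3 counts over the group, so that 1 IVV library made the difference. Such bounds, here and below, take the reads of a group as a pool and leave out the spread between libraries. In IVG-NT day 10 against IVV, 1 gene was called higher and 2 lower, again 3.26%, beside 3.29% of all tested genes. Orai2, a relative of Orai1, had 0, 83 and 4 reads in IVV and 0 in each IVG-NT day 10 library, at least 60.4-fold lower, from 1 library again. Cacna1c, the cardiac calcium channel subunit, had 17, 26 and 9 reads in IVV and 0 in IVG-NT day 10, at least 24.98-fold lower. It was also the 1 pathway gene called for NT-4 on day 10 (1.09%, beside 1.24% of all tested genes), since IVG held 0, 27 and 4 reads, at least 8.06-fold more.

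On day 6, 14 pathway genes were called higher and 2 lower with NT-4, 17.4% beside 11.6% of all tested genes. The higher genes with the smallest P were Cacna1d, Camk2d, Cacna1a and Prkca, calcium channel subunits and calcium-dependent kinases, and the lower ones were Camk2g, the main CaMKII kinase gene of the egg, and Atp2b3, a calcium export pump. Cacna1d had 175 and 189 CPM in the shallow libraries but 1.14 CPM in the deep IVG-NT day 6 library, and 1.01, 4.17 and 3.16 CPM in IVG day 6. Without the shallow libraries 3 were called higher and 0 lower of 96 tested, beside 2.70% of all tested genes, 0 of the 16 genes remained called, and Cacna1d went from 5.45 to −1.20 on the log2 scale. From day 6 to day 10 with NT-4, 3 pathway genes were called higher and 16 lower (20.7%, beside 12.7% of all tested genes), and without the shallow libraries 0 and 1 (1.04%, beside 2.40%). Its lower genes with the smallest P were Camk2d, Cacna1c, Cacna1d and Cacna1a, and the higher ones were Slc8a2, Camk2g and Trpv6. In the interaction, 1 was called higher (Trpv6) and 12 lower (14.1%, beside 6.37% of all tested genes), led by Cacna1c, Cacna1d, Camk2d and Prkca, and 0 of these 13 were called without the shallow libraries.

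From day 6 to day 10 without NT-4, 3 pathway genes were called higher and 1 lower, 4.35% of those tested beside 2.9% of all tested genes. Cd81, the tetraspanin related to Cd9, had 15, 215 and 115 reads on day 10 and 0 in each day 6 library, at least 93.7-fold more. The 14 granulosa cell markers together stood at 102, 400 and 272 CPM in the same day 10 libraries and at 122, 162 and 54.6 CPM in those of day 6. Single markers differed from each other. Inhba and Fshr were higher in each day 10 library than in each day 6 library. Inhba stood at 6.79, 71.3 and 64.3 CPM against 0.720, 0 and 0.5002 CPM. Fshr stood at 9.38, 16.1 and 8.20 CPM against 0.972, 1.34 and 6.43 CPM. Hsd17b1 overlapped, at 1.24, 16.2 and 4.77 CPM against 2.09, 28.5 and 0.177 CPM. So did Gja1, at 2.78, 93.2 and 30.6 CPM against 28.7, 16.1 and 0.221 CPM, and the rest of the 14 markers. Their part in the difference of Cd81 was not tested. Slc8a2, a sodium-calcium exchanger, and Cacna1g, a T-type channel like Cacna1h, were also at 0 reads on day 6 and at least 7.73-fold and 26.8-fold higher on day 10 by the pooled floor, with 1 day 10 library of each at 0. By edgeR's exact test, which weighs the spread between libraries, Slc8a2 was not called (P = 0.136). Zp2, the zona protein that ovastacin cleaves, was lower on day 10, at 1606, 1364 and 927 CPM against 3964, 4227 and 1364 CPM, with a log2 fold change of −1.29 ± 0.60 (SE), adjusted P = 1 (edgeR). This call was lost in 9 of 15 alternatives, among them DESeq2, edgeR's exact test and 5 of 6 fits without 1 library, at −1.04 to −1.65 over these 6. Of 58 alternative values of these 4 genes, 25 lost the call and 33 kept it, and with the replicate block Slc8a2 was no longer called.

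By list, calls outside the contrasts with IVG-NT day 6 were few. Of the 13 tested genes of cortical granules, the 4 zinc transporters, the 5 other genes of calcium release, the 9 of mitochondrial calcium, the 7 of calcium binding in the endoplasmic reticulum and the 23 of the calcium response, 0 were called in IVG day 10 against IVV, IVG-NT day 10 against IVV, IVG-NT against IVG on day 10 or IVG day 10 against day 6. The medians of the 92 genes in these contrasts were −0.02, −0.23, −0.07 and 0.06 on the log2 scale, beside −0.20, −0.19, 0.01 and 0.05 over all tested genes.

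Among 8834 genes with a mean of at least 10 CPM, the genes whose log2 CPM followed each member most closely over the 15 libraries were found by Pearson r. They were Ccdc105 and Gm48893 for Izumo1r (0.99 and 0.99), Tm2d1 and Mrap for Cd9 (0.95 and 0.95), and Smchd1 and F630040K05Rik for Astl (0.98 and 0.97). For the store they were Cherp and Abi1 for Itpr1 (0.99 and 0.99) and Lhfp and Uba1 for Atp2a2 (0.93 and 0.93). For the channels they were Ap1b1 and Fmnl3 for Cacna1h (0.97 and 0.96), Sgsm2 and Ykt6 for Trpm7 (0.98 and 0.98), and Hif1an and Piezo1 for Trpv3 (0.97 and 0.97). For store-operated entry they were Lsm4 and Fnta for Orai1 (0.99 and 0.98) and Pja2 and Zfp74 for Stim1 (0.98 and 0.98). These libraries share the split by kind and the shallow pair, so the values describe the libraries and carry no test.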

How the data were processed

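The authors prepared full-length cDNA by SMART-Seq2 from 6 oocytes per library, sequenced paired ends, removed low-quality reads and aligned to mm10 with HISAT2. The counts per gene were deposited by the authors without normalisation. The study also assembled transcripts with StringTie and took FPKM from it, which were not used here. Which tool made the counts, and the annotation release, are not given in the sources used here. Total counts were 5954262 to 55593251 per library.

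Genes were kept by filterByExpr with a minimum count of 10 (21009 of 55401), scaled by TMM and fitted over the 15 libraries with edgeR 4.0.16 (quasi-likelihood F test, two-sided, R 4.3.3). P-values were adjusted by the Benjamini-Hochberg method over all tested genes. As in the study, a call needs a log2 fold change above 1 or below −1 together with P under 0.05 before adjustment. The SE is the log2 fold change divided by the square root of F. Differences within library kinds are of log2 CPM (prior count 2). DESeq2 1.42.0 was an alternative. Lengths and positions came from GENCODE annotation of GRCm38. The test was checked on simulated data in which all libraries shared the same mean profile, apart from planted differences. These data lacked the split by kind and the discordance of the shallow pair, so the check does not cover that spread.

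The members and lists were chosen with earlier results of these data known. The 10 members were described in full. Of the other pathway genes, those called were named, all where 8 or fewer were called and otherwise 4 in each direction by smallest P, and for each member the 2 genes most like it by Pearson r. Same-numbered libraries deviated together between IVG-NT and IVG on day 10 (r = 0.37, 0.41 and 0.73) and between IVG day 10 and day 6 (r = 0.23, 0.15 and 0.54). They were also of the same kind, so a shared experiment cannot be told apart from a shared kind. Replicate numbers entered as a block in an alternative fit only. The libraries of a group came from replicated experiments, per the study's methods. P-values of the main fit measure the spread within all 5 groups, in which both kinds of library and the shallow pair are included. They do not measure the spread between experiments alone.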

Additional observations from a re-analysis of the deposited data

Results flagged for a closer look

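The difference between the NT-4 effects of day 10 and day 6 was singled out for Atp2a2, since the interaction passed the threshold before adjustment. It was 2.14 on the log2 scale (edgeR quasi-likelihood, adjusted P = 0.721). Atp2a2 was 0.34 higher with NT-4 on day 10 and its difference on day 6 was −1.80. The call was lost with DESeq2 size factors (1.59) and with no filter on low counts (2.11), and by DESeq2 (1.59). The IVG-NT day 6 libraries had 101, 77.8 and 41.6 CPM, and the last of these is the deep library of the group.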

How the results depend on the processing

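Of 140 alternative values of 9 member log2 fold changes, those of the members called or apart between groups, 118 kept their direction and call, 12 lost a call, 10 gained one and 0 changed direction. Trpv3 and Cacna1d on day 6 did change direction when both shallow libraries were left out, an alternative chosen after seeing the data. Of 10 members, 1 was called in IVG day 10 against IVV with no filter on low counts, with edgeR's exact test, with only the groups compared and without the shallow libraries, and 1 in IVG-NT day 10 against IVV by the last 3 of these. With NT-4 against without on day 6, 2 were called by DESeq2, 0 by the exact test or with only the groups compared, 4 with library kind as a covariate, 5 in rRNA-rich libraries only and 3 without the shallow libraries. For IVG-NT day 10 against day 6 these counts were 2 with no filter, with the covariate or without the shallow libraries, 0 by the exact test and 5 in rRNA-rich libraries. For the interaction they were 0 with size factors, no filter or DESeq2 and 4 in rRNA-rich libraries. Genes called moved from 579 to 1637 (no filter), 1258 (exact test), 970 (only the groups) and 1212 (no shallow libraries) for IVG day 10 against IVV, and from 691 to 1580, 1213, 392 (rRNA-rich) and 1162 (no shallow libraries) for IVG-NT day 10 against IVV, in that order. For NT-4 on day 10, 261 became 153 (DESeq2), 142 (exact test), 66 (only the groups), 427 (covariate), 28 (rRNA-rich) and 172 (no shallow libraries). On day 6, 2430 became 4022 (no filter), 1336 (exact test), 451 (only the groups), 4630 (rRNA-rich) and 738 (no shallow libraries). For IVG day 10 against day 6, 609 became 1022 (covariate) and 926 (no shallow libraries). For IVG-NT day 10 against day 6, 2661 became 4250 (no filter), 706 (only the groups), 4986 (rRNA-rich) and 657 (no shallow libraries). For the interaction, 1339 became 3021 (rRNA-rich) and 534 (no shallow libraries). Genes with an adjusted P under 0.05, 0 by the quasi-likelihood test, were 68, 90, 51, 654, 109, 715 and 165 by DESeq2 in the 7 contrasts in the order of the report. By edgeR's exact test they were 13, 16, 1, 35, 8 and 35 in the 6 comparisons of groups. With no filter they were 1 for IVG day 10 against IVV, 1 for NT-4 on day 10, 881 on day 6, 941 for IVG-NT by day and 165 for the interaction, and in rRNA-rich libraries 89 on day 6 and 222 for IVG-NT by day. The cause was not tested.

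With the replicate block the genes called in the 7 contrasts were 534, 556, 127, 1138, 360, 1309 and 703, and the members called stayed at 0, 0, 0, 1, 0, 1 and 1. Whether equal numbers mark a shared experiment cannot be told from the data, since same-numbered cultured libraries are also of the same kind. Their deviations correlated more for NT-4 on day 10 and IVG by day than on day 6 (r = 0.083, 0.107 and 0.328) or for IVG-NT by day (r = 0.080, 0.066 and 0.260). The same-numbered IVV libraries were of the other kind. Leaving out 1 replicate gave 199 to 1065, 235 to 1122, 126 to 254, 1753 to 6817, 311 to 915, 1671 to 7211 and 1125 to 4956 called genes. Against IVV, the IVG count was 199 without IVG day 10 replicate 1, 223 without replicate 2 and 1065 without replicate 3, and the IVG-NT count was 235, 255 and 1122 without replicates 1, 2 and 3 of IVG-NT day 10. Members called were 1 to 5 on day 6, 1 to 4 for IVG-NT by day and 0 to 3 for the interaction, and adjusted counts reached 2411, 2549 and 1218 there without IVG-NT day 6 replicate 3, the deep library, and were otherwise as low as 0. Without that library, the adjusted P for NT-4 on day 6 was 0.002 for Astl, 0.021 for Stim1 and 0.039 for Orai1 (edgeR quasi-likelihood). IVG-NT day 6 is then the shallow pair alone. The interaction of Atp2a2 lost its call without IVG day 10 replicate 3 (1.88), IVG-NT day 10 replicates 1 (1.69) and 2 (2.01), IVG-NT day 6 replicate 3 (1.86), and IVG day 6 replicates 1 (2.07) and 2 (1.95). The shallow pair differed from each other in single genes, with 1972 and 0 reads of Trpv3 and 419 and 0 of Trpm7, and whether depth sets this was not tested. Of the pathway calls named, those lost were 15 of 44 alternative values for IVG day 10 against IVV, 9 of 43 for IVG-NT day 10 against IVV, 7 of 14 for NT-4 on day 10, 16 of 89 for NT-4 on day 6, 29 of 103 for IVG-NT by day and 17 of 100 for the interaction, with 1 more changing direction (Cacna1d) in each of the last 3.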
